A study of Homo sapiens with 15 samples.

Results

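The genes described here are 36 human genes of the endoplasmic reticulum (ER) folding machinery and of the unfolded protein response. They were chosen by name from what is known of the pathway, but with earlier results of these data known. Their counts against all genes are therefore descriptions. Each was read from the Affymetrix probe sets that carry its symbol alone, taking 1 probe set per gene (those not ending in _x_at first, then the brightest). 34 of the 36 had such a probe set among those tested, out of 16358 genes in all. The genes without one were SYVN1, the ubiquitin ligase of ER-associated degradation, and TXNDC5, a disulfide isomerase, which share their probe sets with neighbouring gene entries and are given separately.

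RNA came from A549, a human lung adenocarcinoma epithelial cell line, in 5 groups of 3 arrays. Cells of 2 groups received a DNA-binding polyamide for 48 hours together with dexamethasone for 6 hours, either the match polyamide, which the series title describes as directed at the glucocorticoid response element (GRE), or the mismatch polyamide, whose sequence preference the labels do not give. A further group received mifepristone, an antagonist of the glucocorticoid receptor, for 48 hours with dexamethasone for 6 hours. Dexamethasone, a synthetic glucocorticoid, was given alone for 6 hours, and the last group was not treated. The culture medium of all groups was F12K, with serum that had been treated with charcoal, which removes steroids. The labels give no doses and do not say that the 3 arrays of a group came from separate cultures, so that the p-values measure only the spread between these arrays. No group received a polyamide or mifepristone without dexamethasone.

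Secretory and membrane proteins fold in the ER with the help of the Hsp70 chaperone BiP (HSPA5), its partners, the lectin chaperones and the disulfide isomerases. When unfolded proteins build up, the membrane sensors IRE1 (ERN1), PERK (EIF2AK3) and ATF6 signal to the nucleus through the transcription factors XBP1, ATF4 and ATF6 itself. Of these factors, ATF6 and XBP1 raise the genes for chaperones, for export and for ER-associated degradation. This degradation is the route by which misfolded proteins are drawn back to the cytosol and destroyed. ATF6 and XBP1 are known to act through the ER stress element and the ER stress element II in the promoters of many of these genes.

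Values below are quantile-normalized signals on a linear scale, and changes are differences of log2(signal + 16), which understate the change of dim probe sets. A change was called when its p-value, adjusted over all 39744 tested probe sets, was under 0.05 in limma, and "rose" and "fell" are used only of such changes. Arrays correlated at 0.977 to 0.984 within groups and at 0.942 to 0.984 between groups. The epithelial markers fixed for A549 (8 of 9 represented) summed to 31414 to 32193 under the match polyamide and 32794 to 34022 under the mismatch polyamide, against 36393 to 37116 with dexamethasone alone. Summed signals of leukocyte markers (2 of 5 represented) were between 16.3 and 51.2 on every array, and the endothelial marker represented (1 of 4) between 26.8 and 48.0. The epithelial markers did not move together: EPCAM averaged 606 under match and 486 under mismatch, against 167 with dexamethasone alone, while CDH1 averaged 124 and 161, against 382. Fibroblast markers (4 of 5) summed to 241.0 to 299.2 under the match polyamide and 183.9 to 205.3 under the mismatch polyamide, against 123.7 to 173.2 with dexamethasone alone. COL1A1 made up most of that sum and of its difference, with means of 230 under match and 153 under mismatch, against 106 with dexamethasone alone, while COL1A2, DCN and LUM averaged under 21 in every group. These shifts move with the polyamide results below, and their part in them was not tested. The arrays measured whole cultures, so that fewer cells with a transcript and less of it per cell cannot be told apart.

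The promoters below are shown because they carry the response elements of the pathway and because their genes include both those that fell and 1 that rose under the polyamides. Each runs from 250 bases before to 50 bases after a RefSeq gene start on GRCh38.p14, 5′ to 3′ on the gene's own strand, with the element in capitals. The windows are chr9:125241294-125241593 (minus strand) for HSPA5, chr12:103930160-103930459 (plus strand) for HSP90B1, chr2:10812736-10813035 (minus strand) for PDIA6, chr22:28800520-28800819 (minus strand) for XBP1 and chr16:56931892-56932191 (plus strand) for HERPUD1. Capitals mark the ER stress element in the promoters of HSPA5, HSP90B1, PDIA6 and XBP1, with 2 copies in HSP90B1 of which the later one is on the other strand, and the ER stress element II in that of HERPUD1.
HSPA5: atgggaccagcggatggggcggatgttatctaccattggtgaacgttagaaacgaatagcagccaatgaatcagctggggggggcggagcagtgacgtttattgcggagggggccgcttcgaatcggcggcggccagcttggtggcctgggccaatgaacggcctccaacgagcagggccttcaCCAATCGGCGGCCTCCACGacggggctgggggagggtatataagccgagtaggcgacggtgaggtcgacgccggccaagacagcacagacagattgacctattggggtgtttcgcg
HSP90B1: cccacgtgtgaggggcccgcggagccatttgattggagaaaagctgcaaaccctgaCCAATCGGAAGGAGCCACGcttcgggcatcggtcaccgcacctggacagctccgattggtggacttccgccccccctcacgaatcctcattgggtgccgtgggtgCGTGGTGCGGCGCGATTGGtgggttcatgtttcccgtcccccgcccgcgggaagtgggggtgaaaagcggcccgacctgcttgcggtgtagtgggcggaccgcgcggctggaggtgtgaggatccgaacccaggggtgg
PDIA6: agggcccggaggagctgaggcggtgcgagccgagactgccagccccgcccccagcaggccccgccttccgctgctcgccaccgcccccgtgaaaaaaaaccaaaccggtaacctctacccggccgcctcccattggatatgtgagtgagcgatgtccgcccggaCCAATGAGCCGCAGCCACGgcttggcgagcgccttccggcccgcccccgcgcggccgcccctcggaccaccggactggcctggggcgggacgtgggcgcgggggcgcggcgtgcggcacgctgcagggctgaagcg
XBP1: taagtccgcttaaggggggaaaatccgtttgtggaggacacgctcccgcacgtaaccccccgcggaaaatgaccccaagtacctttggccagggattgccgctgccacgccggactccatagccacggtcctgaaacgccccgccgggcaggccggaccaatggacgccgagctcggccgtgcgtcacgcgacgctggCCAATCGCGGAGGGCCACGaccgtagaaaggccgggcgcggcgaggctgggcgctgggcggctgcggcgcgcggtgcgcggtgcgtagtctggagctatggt
HERPUD1: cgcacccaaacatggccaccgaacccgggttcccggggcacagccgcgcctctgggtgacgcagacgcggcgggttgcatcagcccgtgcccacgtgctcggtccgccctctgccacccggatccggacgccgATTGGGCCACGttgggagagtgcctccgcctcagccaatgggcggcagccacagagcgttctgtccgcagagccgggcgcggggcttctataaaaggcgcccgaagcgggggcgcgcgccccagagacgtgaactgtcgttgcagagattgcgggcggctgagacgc

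The motifs were searched on both strands as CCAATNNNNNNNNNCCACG for the ER stress element, ATTGGNCCACG for the ER stress element II and GNACANNNTGTNC for the GRE, none of which overlap each other in these windows. Promoter windows were held for 32 of the 36 genes. The ER stress element was in the windows of 7 of them (21.9%), namely CALR, CANX, CRELD2, HSP90B1, HSPA5, PDIA6 and XBP1, against 25 of 27305 genes with a window (0.0916%). The ER stress element II was in 3 (HERPUD1, HYOU1 and SDF2L1, 9.38%), against 19 of all genes (0.0696%). The GRE letters were in none of the 32 windows and in 131 of all genes (0.48%), which says only that these letters are not in these windows. A match is a description of the letters and not of binding. The genes were chosen from the pathway whose promoters are known to carry the ER stress elements, so their larger shares are not a finding.

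Dexamethasone for 6 hours changed few of these genes. Compared with non-treated cells, 4 of 34 rose and 0 fell, with a median change of 0.02 log2 units. Over all 16358 genes tested the shares called at the adjusted threshold were 3.20% higher and 3.60% lower, with a median of -0.04. At an unadjusted p under 0.05 in limma the counts of the 34 genes were 5 and 2. At that unadjusted threshold 5827 of all 39744 tested probe sets passed, in either direction. The 4 that rose were the sensor EIF2AK3 (PERK), the ER-membrane transcription factor CREB3L2, and HERPUD1 and SELENOS, both of the degradation route. None of the chaperones, disulfide isomerases or translocation genes passed the test, and their changes lay between -0.34 (DNAJB11) and 0.29 (PDIA3).

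EIF2AK3, the kinase that slows translation when proteins misfold, gave signals of 866, 860 and 716 under the match polyamide, 720, 651 and 757 under the mismatch polyamide, 316, 304 and 290 with mifepristone, 598, 554 and 584 with dexamethasone alone and 290, 325 and 361 in non-treated cells. The polyamide arrays were the highest, those with mifepristone lay among the non-treated ones, and the dexamethasone arrays stood between them without overlap. Its change under dexamethasone was 0.81 ± 0.09 (SE, n = 3 each, 1.75-fold, adjusted p = 3.66e-06). This was the only 1 of the 4 rises called under all 5 array scalings tried, where it lay 0.81 to 0.84 above the median of all genes. CREB3L2 gave 491, 472 and 460 with dexamethasone, against 332, 303 and 322 in non-treated cells, a change of 0.55 ± 0.09 (adjusted p = 0.000276). SELENOS, a selenoprotein that helps recruit the p97 ATPase to the ER membrane, gave 1775, 1810 and 1836 with dexamethasone, against 1472, 1341 and 1450 in non-treated cells (0.34 ± 0.06, adjusted p = 0.000541). HERPUD1, an organiser of the degradation complex, gave 973, 1026 and 1089, against 799, 823 and 847 (0.32 ± 0.07, adjusted p = 0.00484). In all 3 genes the dexamethasone arrays lay above every non-treated array. Their calls were lost when signals were used as deposited (adjusted p of 0.126, 0.358 and 0.504) or scaled on the spike-in probe sets (0.272, 0.725 and 0.787), although each stayed above the median of all genes under every scaling. HERPUD1 also lost its call without the variance trend (adjusted p = 0.0607).

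Mifepristone with dexamethasone, set against dexamethasone alone, gave 1 gene higher and 3 lower of 34, with a median of -0.00. The background was 2.53% higher and 2.76% lower of all genes, with a median of 0.02. This comparison and the previous one share the dexamethasone arrays, so that their values are given side by side and not tested for likeness. EIF2AK3 fell by 0.90 on the log2 scale (SE 0.09, adjusted p = 1.18e-06), to a mean of 303 ± 12.9 with mifepristone, against 579 ± 22.4 with dexamethasone alone (SD, n = 3 each) and 325 ± 35.8 in non-treated cells. SELENOS fell by 0.33 (SE 0.06, adjusted p = 0.00124), with 1413, 1375 and 1522 on the mifepristone arrays, all below the dexamethasone ones. This SELENOS call was lost with median centring (-0.23, adjusted p = 0.111) and without the variance trend (0.057). HERPUD1 fell by 0.24 (SE 0.07, adjusted p = 0.0459), with 864, 831 and 904 on the mifepristone arrays, again below every dexamethasone array. CREB3L2, raised by dexamethasone, did not pass here, with 445, 445 and 423 with mifepristone (-0.11 ± 0.09, adjusted p = 0.705).

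The gene that rose with mifepristone was XBP1, with 607, 534 and 598, against 497, 443 and 410 with dexamethasone alone (0.36 ± 0.09, adjusted p = 0.0219) and 462, 460 and 430 in non-treated cells. Its mifepristone arrays lay above all the others of these groups. The XBP1 call was lost without mifepristone array 1 or 3 or dexamethasone array 2 or 3, with adjusted p between 0.0807 and 0.138. HERPUD1 lost its call without mifepristone array 1 or 2 or dexamethasone array 2 or 3 (0.12 to 0.22), and with median centring (0.447), without the filter (0.0516), without the variance trend (0.213) and with only the 6 arrays compared (0.093). Without the variance trend XBP1 lost its call too (0.115). This comparison also depended on how the arrays were scaled. The median change of all genes was 0.38 as deposited and 0.44 with spike-in scaling. The counts then became 15 and 21 higher, with 0 lower in both, and the signs of SELENOS (0.10 and 0.17) and HERPUD1 (0.19 and 0.26) turned. Nearly all calls over the whole array were then higher as well, so these counts are not a result about the ER genes. Relative to the median of all genes EIF2AK3 was lower by 0.81 to 0.91 under all 5 scalings, but its call was lost as deposited (adjusted p = 0.0695) and with spike-in scaling (0.0993).

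**Figure D1:**
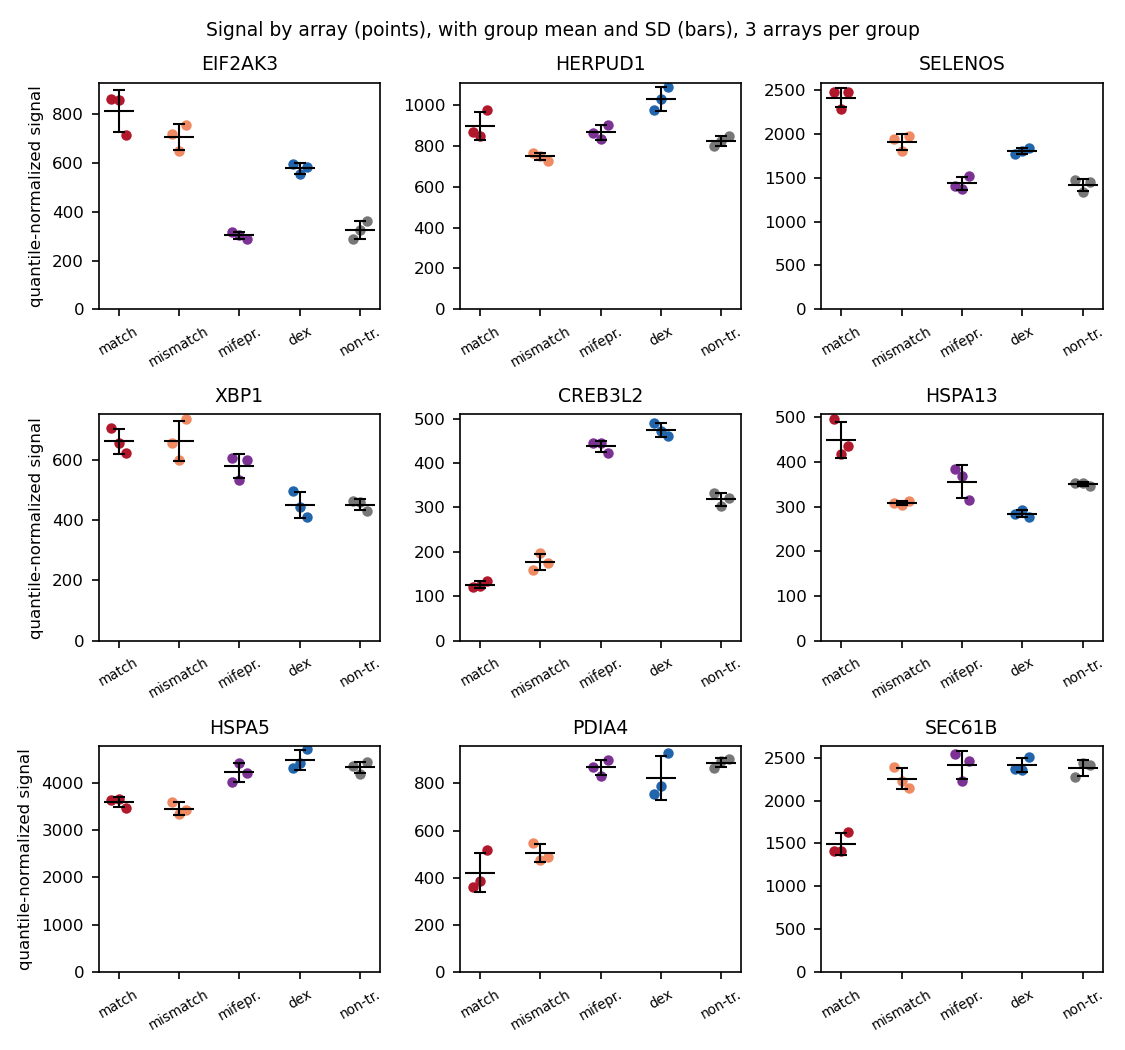
Quantile-normalized signal (linear axis from 0) of 9 genes on each array, with group mean and SD (bars, n = 3), for match polyamide, mismatch polyamide, mifepristone, dexamethasone alone and non-treated cells. EIF2AK3 averages 814, 709, 303, 579 and 325 in these groups, while CREB3L2 averages 126, 177, 438, 474 and 319.

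The polyamides changed many more of these genes, and most of those that changed fell. Under the match polyamide 21 of 34 fell, 4 rose and 9 did not pass, with a median change of -0.31 against dexamethasone alone. Over all genes 17.4% were lower and 21.5% higher, with a median of 0.05. Under the mismatch polyamide 18 fell, 3 rose and 13 did not pass, with a median of -0.28, against 11.8% lower and 17.9% higher of all genes and a median of 0.07. Both comparisons use the same dexamethasone arrays, so that their likeness is not a result.

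**Figure D2:**
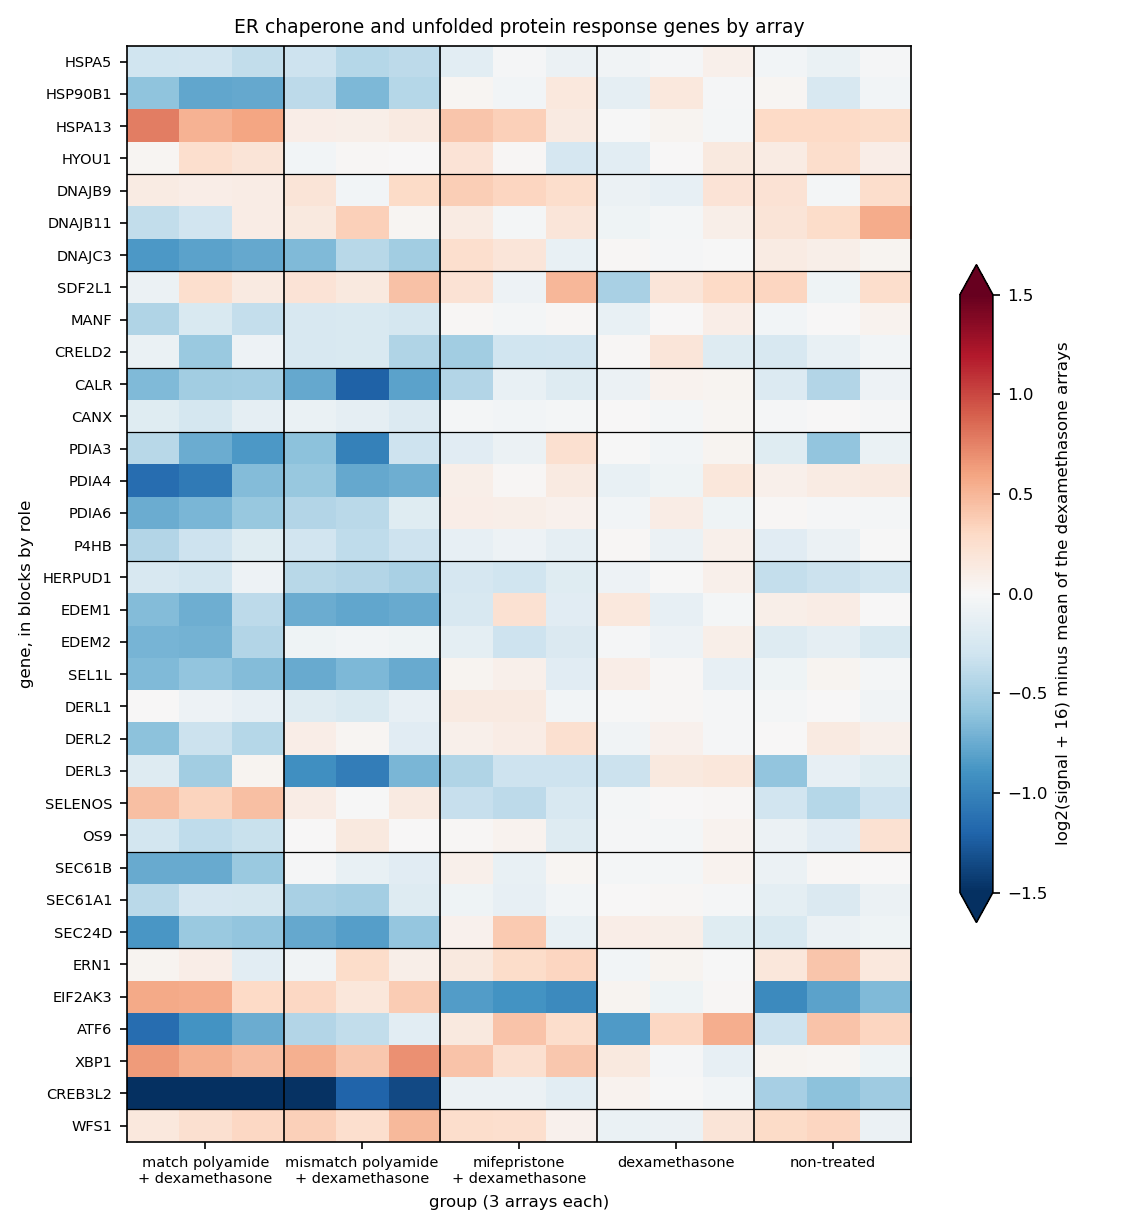
Log2(signal + 16) of each gene on each array minus the mean of the dexamethasone arrays, with genes in rows by role and the 15 arrays in columns by group. Under both polyamides the blocks of disulfide isomerases and lectin chaperones are blue (lower), while EIF2AK3 and XBP1 are red (higher).

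The share that fell depended on the scaling of the arrays. With signals as deposited 12 genes fell under the match polyamide and 7 under the mismatch polyamide, and with spike-in scaling 6 and 7 fell. These counts are not set against the shares of all genes called at the same scaling. The median of all genes moved at the same time, to 0.26 (match) and 0.13 (mismatch) with spike-in scaling and to 0.11 and 0.20 as deposited. Relative to that median, the median of the 34 genes was lower by 0.33 to 0.41 under the match polyamide and by 0.26 to 0.35 under the mismatch polyamide over the 5 scalings. All 21 genes called lower under the match polyamide, and all 18 under the mismatch polyamide, stayed below the median of all genes under every scaling. The calls that held under all 5 scalings were CREB3L2, PDIA4, ATF6, DNAJC3, HSP90B1 and SEC61B (6 of 21) for match, and CREB3L2, CALR, DERL3, EDEM1, SEL1L, SEC24D and PDIA4 (7 of 18) for mismatch.

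Among the Hsp70 and Hsp90 class chaperones, HSPA5 and HSP90B1 fell under both polyamides, HSPA13 rose under the match polyamide, and HYOU1, the large Hsp70-like exchange factor of BiP, did not pass in either. HSPA5 gave 3640, 3663 and 3467 under match and 3597, 3334 and 3416 under mismatch, against 4312, 4418 and 4705 with dexamethasone alone. All 6 polyamide arrays lay below the dexamethasone ones. The changes were -0.32 ± 0.05 (adjusted p = 3.03e-05) and -0.38 ± 0.05 (8.21e-06). HSP90B1, the ER member of the Hsp90 family (GRP94), gave 908, 805 and 808 under match and 1055, 866 and 1027 under mismatch, against 1269, 1549 and 1370 (changes of -0.72 ± 0.09, adjusted p = 2.56e-06, and -0.50 ± 0.09, adjusted p = 0.000323). The single-symbol probe sets of HSP90B1 end in _x_at, which can take up related sequences. Its other 2 probe sets, which also carry the symbol of the microRNA entry MIR3652, fell too, by 0.66 (SE 0.13) and 0.58 (SE 0.07) under match and by 0.60 (SE 0.13) and 0.24 (SE 0.07) under mismatch. A dimmer _x_at probe set of HSP90B1 did not pass (0.22, adjusted p = 0.373 under match).

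HSPA13, a microsomal Hsp70-like ATPase, gave 495, 417 and 436 under match and 307, 305 and 314 under mismatch, against 284, 293 and 278 with dexamethasone alone. The match arrays stood apart from all others, and the change of 0.63 ± 0.09 (adjusted p = 7.02e-06) was called under all 5 scalings. Under mismatch the change was 0.11 ± 0.09 (adjusted p = 0.417). A second HSPA13 probe set rose under both polyamides, by 0.93 under match (adjusted p = 1.28e-07) and by 0.33 under mismatch (0.0148).

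Of the J proteins, which hand clients to BiP and start its ATPase cycle, DNAJC3 (p58IPK) fell under both polyamides while DNAJB9 and DNAJB11 did not pass in either. DNAJC3 gave 163, 170 and 175 under match and 190, 228 and 211 under mismatch, against 313, 307 and 309. No array of these groups overlapped with the dexamethasone ones. The changes were -0.81 ± 0.10 (adjusted p = 1.25e-06) and -0.53 ± 0.10 (0.000329), and all 4 of its tested probe sets fell under match. The dimmest DNAJC3 probe set did not pass under mismatch (-0.48, adjusted p = 0.214). MANF, a small secreted cofactor of BiP, fell by 0.35 under match (adjusted p = 0.000774) and by 0.25 under mismatch (0.0158), whereas SDF2L1 and CRELD2 did not pass in either.

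Both lectin chaperones, which hold glycoproteins until they fold, fell under both polyamides. CALR gave 44.1, 50.2 and 50.5 under match and 39.4, 25 and 38.1 under mismatch, against 72.8, 82.0 and 81.5 with dexamethasone alone. Every polyamide array was below every dexamethasone array, with changes of -0.56 ± 0.15 (adjusted p = 0.00694) and -0.93 ± 0.15 (0.000115). This CALR probe set is dim, and of its other 2, which end in _x_at, 1 fell under both polyamides (by 0.34 and 0.43) and 1 passed in neither (-0.15 and -0.26). CANX fell by 0.19 under match (adjusted p = 0.00285) and by 0.15 under mismatch (0.0253), the smallest called change under either polyamide, and its sign turned with spike-in scaling under both and as deposited under mismatch.

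All 4 disulfide isomerases represented fell under both polyamides. PDIA4 (ERp72) gave 363, 386 and 518 under match and 548, 476 and 488 under mismatch, against 756, 787 and 929. PDIA3 (ERp57), which works with the lectin chaperones, gave 1380, 1098 and 1008 under match and 1203, 906 and 1491 under mismatch, against 1844, 1792 and 1903. PDIA6 (P5) gave 1711, 1776 and 1940 under match and 2114, 2171 and 2540 under mismatch, against 2799, 3096 and 2738. In each gene the polyamide and dexamethasone arrays did not overlap. The changes of PDIA4 were -0.95 ± 0.10 under match (adjusted p = 3.92e-07) and -0.69 ± 0.10 under mismatch (4.64e-05). Those of PDIA3 were -0.67 ± 0.15 (0.00146) and -0.64 ± 0.15 (0.00324), and those of PDIA6 were -0.66 ± 0.07 (9.43e-08) and -0.34 ± 0.07 (0.000614). P4HB, the classical disulfide isomerase, fell by 0.31 and 0.32 (SE 0.06 in both). All 4 tested probe sets of PDIA6 and both of PDIA4 fell under both polyamides. The dimmest PDIA3 probe set did not pass under mismatch (-0.25, adjusted p = 0.284). The shared TXNDC5 probe set did not pass under either polyamide (-0.03 ± 0.08, adjusted p = 0.812, and -0.18 ± 0.08, adjusted p = 0.101).

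**Figure D3:**
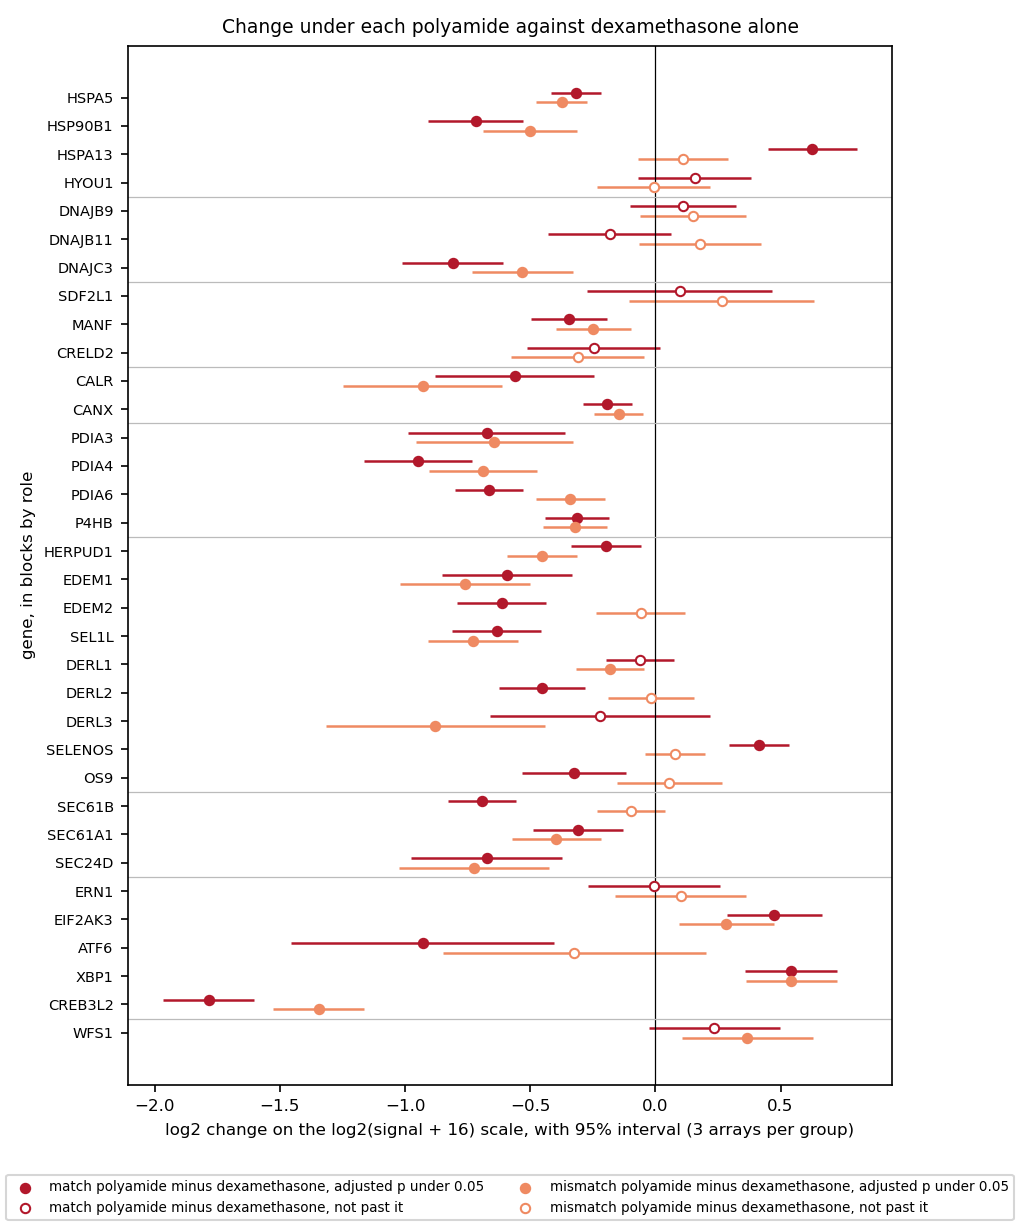
Log2 change of each gene under the match polyamide (dark red, upper mark) and the mismatch polyamide (orange, lower mark) against dexamethasone alone, with 95% intervals and filled marks for adjusted p under 0.05. CREB3L2 lies farthest to the left at -1.78 and -1.35, and ATF6, EDEM2, DERL2, SEC61B and OS9 are filled and low for the match polyamide only.

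Of the 9 ER-associated degradation genes represented, 6 fell and SELENOS rose under match, and 5 fell under mismatch. SEL1L, the adaptor of the SYVN1 ligase, gave 256, 269 and 258 under match and 238, 254 and 239 under mismatch, against 444, 420 and 379, with no overlap (-0.63 ± 0.09, adjusted p = 6.01e-06, and -0.73 ± 0.09, adjusted p = 2.3e-06). The dimmest of its 4 tested probe sets passed neither under match (-0.38, adjusted p = 0.159) nor under mismatch (-0.09, adjusted p = 0.803). EDEM1, a lectin-like protein that marks glycoproteins for degradation, gave 115, 108 and 140 under match and 107, 103 and 106 under mismatch, against 213, 173 and 185. Its polyamide arrays all lay below the dexamethasone ones (-0.59 ± 0.12, adjusted p = 0.000826, and -0.76 ± 0.12, adjusted p = 0.000112). HERPUD1 gave 869, 848 and 973 under match and 764, 751 and 727 under mismatch, against 973, 1026 and 1089. Its highest match array met the lowest dexamethasone array, while all mismatch arrays were lower, with changes of -0.20 ± 0.07 (adjusted p = 0.0287) and -0.45 ± 0.07 (3.52e-05). The match call of HERPUD1 was lost as deposited, with median centring and with spike-in scaling, which turned its sign.

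EDEM2, a mannosidase that trims glycoproteins for disposal, gave 256, 254 and 310 under match and 405, 411 and 407 under mismatch, against 421, 403 and 454. DERL2, a derlin of the retrotranslocation channel, gave 514, 631 and 589 under match and 850, 809 and 706 under mismatch, against 766, 834 and 786. OS9, a lectin that passes glycoproteins to SEL1L, gave 256, 237 and 245 under match and 314, 348 and 315 under mismatch, against 309, 304 and 323. In all 3 genes the match arrays were below all others, and the mismatch arrays overlapped the dexamethasone ones. Under match EDEM2 fell by 0.61 (adjusted p = 8.23e-06), DERL2 by 0.45 (0.000184) and OS9 by 0.33 (0.0166). Under mismatch the changes were -0.06, -0.02 and 0.06, none of which passed.

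SELENOS gave 2480, 2288 and 2475 under match and 1946, 1807 and 1977 under mismatch, against 1775, 1810 and 1836. All match arrays were higher than the rest, and the rise of 0.41 ± 0.06 (adjusted p = 9.79e-06) was called under all 5 scalings, whereas the mismatch change of 0.08 ± 0.06 did not pass. DERL1 did not pass under match (-0.06 ± 0.06) and fell by 0.18 under mismatch, where its adjusted p of 0.0498 was near the threshold and was lost under the other 4 scalings. Its further probe sets differed under match, where 1 rose by 0.26 and 1 fell by 0.26. DERL3 gave 16.5, 9.86 and 22.2 under match and 3.61, 2.00 and 7.11 under mismatch, against 13.7, 25.1 and 25.6. The mismatch arrays were lowest (-0.88 ± 0.21, adjusted p = 0.00385), but this probe set is dim, and the other DERL3 probe set, which ends in _x_at, changed by 0.70 (adjusted p = 0.112). The shared SYVN1 probe set did not pass (0.31 ± 0.19, adjusted p = 0.266 under match, and 0.20 ± 0.19, adjusted p = 0.544 under mismatch).

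The translocation and export genes all fell under match, and 2 of 3 fell under mismatch. SEC61B, a small subunit of the channel through which proteins enter the ER, gave 1416, 1417 and 1637 under match and 2389, 2224 and 2149 under mismatch, against 2369, 2361 and 2506. Only the match arrays stood apart, with a change of -0.69 ± 0.06 (adjusted p = 4.6e-08), while the mismatch change was -0.10 ± 0.06 (0.329). SEC24D, a cargo-binding subunit of the COPII coat, gave 51.3, 68.0 and 65.5 under match and 56.3, 53.5 and 66.5 under mismatch, against 116, 115 and 92.8. Its polyamide arrays were all lower (-0.67 ± 0.14, adjusted p = 0.000952, and -0.72 ± 0.14, adjusted p = 0.000784). SEC61A1, the pore-forming subunit, fell by 0.31 under match (adjusted p = 0.00825) and 0.40 under mismatch (0.00175).

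The sensors and transcription factors did not move one way. CREB3L2, a membrane-bound factor that is cleaved like ATF6, gave 120, 123 and 136 under match and 160, 197 and 176 under mismatch, against 491, 472 and 460 with dexamethasone and 332, 303 and 322 in non-treated cells. Both polyamide groups lay below even the non-treated arrays. Its changes against dexamethasone alone were -1.78 ± 0.09 (adjusted p = 3.25e-12) and -1.35 ± 0.09 (7.24e-10), the largest among the 34 genes under either polyamide. The other 2 CREB3L2 probe sets were dim and did not pass in any comparison.

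ATF6 gave 66.7, 82.4 and 92.9 under match and 119, 126 and 148 under mismatch, against 186, 230 and 204 with mifepristone, 85.2, 210 and 251 with dexamethasone alone and 131, 229 and 213 in non-treated cells. The first dexamethasone array lay within the range of the match arrays, so that the groups overlapped. The match change was -0.93 ± 0.25 (adjusted p = 0.00674) and lost its call without dexamethasone array 3 (0.0595). The mismatch change of -0.32 ± 0.25 did not pass (0.419), but did so without dexamethasone array 1 (-0.75, adjusted p = 0.00587). The other 3 ATF6 probe sets fell under both polyamides. The brightest of them gave 57.2, 48.8 and 42.4 under match and 81.4, 84.0 and 79.4 under mismatch, against 179, 191 and 185 with dexamethasone alone and 149, 161 and 154 in non-treated cells, with no overlap. It fell by 1.63 under match (adjusted p = 2.54e-10) and by 1.04 under mismatch (3.78e-07).

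XBP1 gave 706, 654 and 622 under match and 655, 601 and 734 under mismatch, against 497, 443 and 410. Every polyamide array was higher, with a change of 0.54 ± 0.09 in both (adjusted p = 5.25e-05 for match and 9.37e-05 for mismatch), called under all 5 scalings. Whether the XBP1 mRNA was spliced by IRE1 was not measured here. EIF2AK3 rose further under both polyamides, by 0.48 ± 0.09 under match (adjusted p = 0.000313) and by 0.28 ± 0.09 under mismatch (0.0273), with all 6 arrays above the dexamethasone ones. The mismatch call of EIF2AK3 was lost as deposited, with spike-in scaling, without the variance trend (0.0814), and without mismatch array 1 or 3 or dexamethasone array 2 or 3 (adjusted p of 0.0565 to 0.115 without an array). ERN1 did not pass in any comparison, with 81.3, 84.8 and 68.5 under match, 74.8, 97.9 and 84.0 under mismatch, 88.5, 97.9 and 101 with mifepristone, 76.0, 81.0 and 78.0 with dexamethasone alone and 89.7, 110 and 88.9 in non-treated cells. A second ERN1 probe set, whose groups did not overlap, gave 137, 124 and 161 under match, against 52.8, 58.1 and 63.3 with dexamethasone alone, and rose by 1.08 (adjusted p = 1.62e-06). It gave 84.1, 73.1 and 78.6 under mismatch (0.35, adjusted p = 0.0573). WFS1, a calcium-handling protein of the ER membrane, rose by 0.37 under mismatch (adjusted p = 0.0395), a call lost as deposited (0.0764), with trimmed-mean scaling (0.0647) and with spike-in scaling (0.19), and did not pass under match (0.24, adjusted p = 0.176).

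The match and mismatch polyamides, given for the same 48 hours at doses the labels do not state, were compared directly. Of the 34 genes 7 were lower (20.6%) and 4 higher (11.8%) under match, with a median of -0.03. Over all genes 13.5% were lower and 9.43% higher, with a median of -0.02. Among all genes with a mean signal of 100 to 1000, 21.7% were lower and 16.6% higher, against 5 and 2 of 22 ER genes. Over 1000 the shares were 26.3% and 15.2%, against 2 and 1 of 8. The counts are thus near the shares of equally bright genes, and the genes below are listed singly. Lower under match were SEC61B (-0.59 ± 0.06, adjusted p = 2.09e-06), EDEM2 (-0.56 ± 0.08, 9.61e-05), DERL2 (-0.44 ± 0.08, 0.000727), CREB3L2 (-0.44 ± 0.09, 0.0012), PDIA6 (-0.33 ± 0.07, 0.0014) and OS9 (-0.38 ± 0.10, 0.011), all with match arrays below every mismatch array. DNAJB11 was also called lower (-0.36 ± 0.12, 0.0388), with 429, 456 and 605 under match, against 620, 724 and 571 under mismatch, which overlap. The genes higher under match were HSPA13 (0.52 ± 0.09, 0.000221), SELENOS (0.34 ± 0.06, 0.000335), HERPUD1 (0.26 ± 0.07, 0.0103) and DERL3 (0.66 ± 0.21, 0.0356), with no overlap. OS9 lost its call without mismatch array 2 (0.0559), HERPUD1 without match array 3 (0.0651), and DERL3 without match array 1 or 3 or mismatch array 1 or 2 (0.0852 to 0.149). The dimmest probe sets of PDIA6 (-0.10, adjusted p = 0.413) and DERL2 (-0.15, adjusted p = 0.7) did not pass between the polyamides. No call of this comparison held under all 5 scalings: as deposited 5 were lower and 0 higher, and with spike-in scaling 0 were lower and 2 higher, while the median of all genes moved to -0.10 and 0.13. Each of the 11 genes stayed on its side of that median.

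The other 23 genes did not pass between the polyamides, and the intervals show what sizes remained possible. HSPA5 differed by 0.06 (95% interval -0.04 to 0.16), P4HB by 0.01 (-0.12 to 0.14), XBP1 by -0.00 (-0.18 to 0.18), SEL1L by 0.09 (-0.08 to 0.27) and PDIA3 by -0.03 (-0.34 to 0.28). For 6 of the 23 the interval left out 0 although the adjusted p was over 0.05. These were ATF6 (-0.61, interval -1.13 to -0.08, adjusted p = 0.112), CALR (0.37, 0.05 to 0.69, 0.112), DNAJC3 (-0.28, -0.48 to -0.08, 0.0543), PDIA4 (-0.26, -0.48 to -0.05, 0.0949), HSP90B1 (-0.22, -0.41 to -0.03, 0.112) and EIF2AK3 (0.19, with a lower bound just above 0 and an upper one of 0.38, 0.17). The match arrays of ATF6 lay below all its mismatch arrays, and its brightest other probe set was lower by 0.58 (adjusted p = 0.000571).

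Genes that carry the ER stress element moved in both directions under the polyamides. Of the 7 with the element, 5 fell (CALR, CANX, HSP90B1, HSPA5 and PDIA6), XBP1 rose and CRELD2 did not pass, in each of the polyamide comparisons. Of the 3 with the ER stress element II, only HERPUD1 changed, downward. Of the 20 tested genes whose window held neither, 13 fell and 3 rose under match, and 8 fell and 2 rose under mismatch. Of the 4 tested genes without a window, 2 fell under match and 4 under mismatch, and 0 rose in either. Over all genes 17.4% were lower and 21.5% higher under match, and 11.8% lower and 17.9% higher under mismatch. With dexamethasone none of the 7 passed, and HERPUD1 was the 1 of 3 that rose. Among the 20 with neither element 3 rose, against 3.20% of all genes. Whether the elements had a part in these changes was not tested.

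The neighbouring steps of the pathway were read from other lists of genes, also chosen with earlier results of these data known. The shares over all genes were 17.4% lower and 21.5% higher under match, and 11.8% lower and 17.9% higher under mismatch. Of 22 genes of the translocon, signal peptidase and oligosaccharyltransferase, 12 fell and 0 rose in limma under match (SPCS3, at 0.22, was higher at an unadjusted p under 0.05), and 10 fell and 1 rose under mismatch. TRAM1, a translocon-associated protein, fell by 0.67 under match (adjusted p = 1.14e-09) and 0.33 under mismatch (3.19e-05), and DAD1, an oligosaccharyltransferase subunit, fell by 0.62 under match (3.43e-08). Of 21 COPII coat and cargo receptor genes, 11 fell and 2 rose under match, among them the cargo receptors LMAN1 (-0.40) and LMAN2 (-0.60) and TMED10 (-0.83), and 4 fell (19.0%) and 2 rose (9.52%) under mismatch. Of 20 other folding and disulfide enzymes, 9 fell and 2 rose under match, with SIL1, a nucleotide exchange factor of BiP, at -1.86 ± 0.16 (adjusted p = 1.23e-08) and ERP44 at -0.90 (7.84e-08). Under mismatch 5 of the 20 fell and 2 rose, with SIL1 at -1.06 and ERP44 at -0.61. Of 22 genes in the list of other degradation genes, 11 fell and 6 rose under match, and 10 fell and 1 rose under mismatch. Under match UBAC2 was at -1.69 (adjusted p = 1.49e-07 in limma). STT3B, an oligosaccharyltransferase subunit that was placed in this list, was at -1.28 (2.56e-10). Of 16 other ER stress regulators, 3 were called higher (18.8%) and 0 lower in limma under match, and 2 higher and 2 lower (12.5% each) under mismatch, where their changes ran from -0.68 to 0.61. These counts also depended on the scaling, and the next ones are not set against the shares of all genes called at the same scaling. As deposited, the lower calls under match were 5 for the translocon list, 3 for COPII, 7 for folding and 5 for degradation, and with spike-in scaling 1, 1, 4 and 2. Under mismatch they were 0, 0, 1 and 5 as deposited and 0, 0, 3 and 5 with spike-in scaling. Relative to the median of all genes, the medians of these 4 lists were lower under both polyamides and all 5 scalings, between -0.33 and -0.21 under match and between -0.36 and -0.06 under mismatch.

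The list named the PERK and ATF4 branch went the other way. Besides ATF4, DDIT3, TRIB3, ATF3, ASNS and others, it holds the kinases EIF2AK1, EIF2AK2 and EIF2AK4, and not EIF2AK3 (PERK) itself. Whether PERK had a part in its changes was not tested. Of its 18 genes 13 rose (72.2%) and 2 fell (11.1%) under match, with a median of 0.98 (all genes 21.5% and 17.4%). Under mismatch 8 rose (44.4%) and 1 fell (5.56%), with a median of 0.24 (all genes 17.9% and 11.8%). ASNS, asparagine synthetase and an ATF4 target, averaged 2813 under match and 1539 under mismatch, against 732 with dexamethasone alone (1.92 ± 0.06, adjusted p = 6.35e-15, and 1.06 ± 0.06, adjusted p = 6.97e-11). ATF3 rose by 2.44 ± 0.14 under match (4.11e-11) and 1.08 ± 0.14 under mismatch (8.49e-06), and PPP1R15A (GADD34), which restores translation, rose by 1.97 ± 0.11 under match (4.47e-11). Over the whole list the changes ran from -0.26 to 2.44 under match and from -0.37 to 1.31 under mismatch. Between the polyamides 11 of the 18 were higher (61.1%) and 1 lower (5.56%) under match, against 9.43% higher and 13.5% lower of all genes. These counts were 5 and 0 as deposited, and 9 and 0 with spike-in scaling. TRIB3, a pseudokinase induced by ATF4, was higher by 1.06 ± 0.07 in limma (adjusted p = 1.94e-09). Relative to the median of all genes, the list's median was higher by 0.89 to 0.95 under match and by 0.12 to 0.17 under mismatch over the 5 scalings. The rises numbered 12 to 13 under match and 7 to 9 under mismatch over these scalings. With dexamethasone 3 of the 18 rose (DDIT4 0.93, CEBPB 0.70 and TRIB3 0.33) and 2 fell, ATF3 (-0.62) and ATF4 (-0.25). With mifepristone against dexamethasone alone, DDIT4 (-0.74), CEBPB (-0.47) and TRIB3 (-0.40) fell, and ATF3 (0.58) and ATF4 (0.34) rose. These comparisons share the dexamethasone arrays. Over all genes 3.20% were higher and 3.60% lower with dexamethasone, and 2.53% higher and 2.76% lower with mifepristone. As deposited the list had 2 higher and 0 lower with dexamethasone and 11 higher and 0 lower with mifepristone, and with spike-in scaling 2 and 0, and 13 and 0, so that every fall printed here was lost under both scalings. With mifepristone nearly all calls over the whole array were higher under both of these scalings as well, so these counts are not a result about the list.

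**Figure D4:**
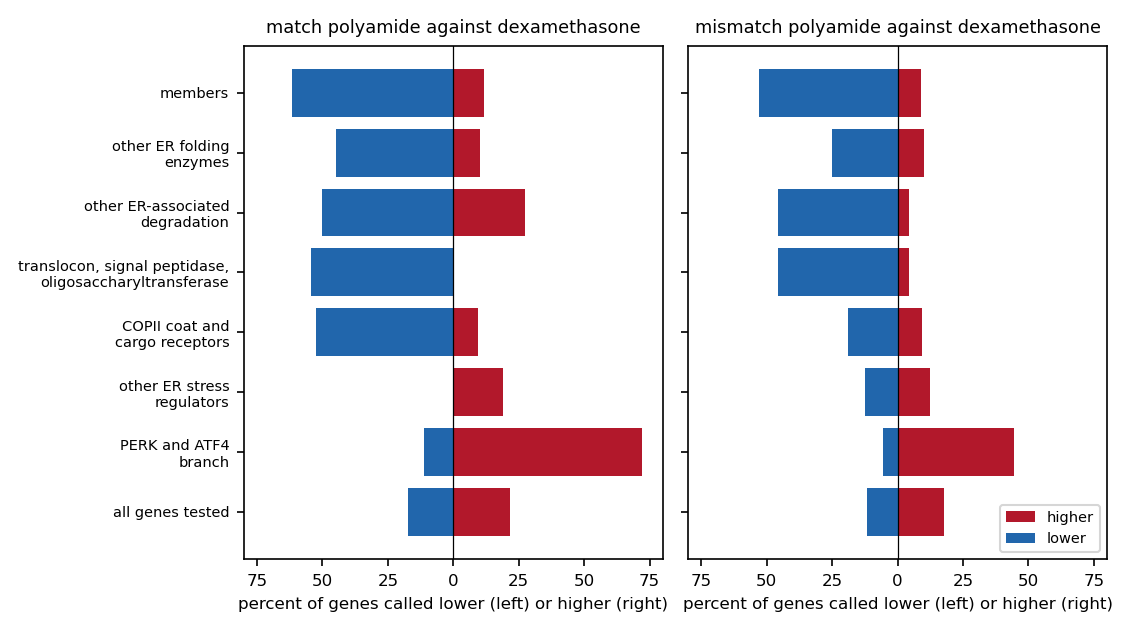
Percent of genes called lower (blue, left) and higher (red, right) in each list, for the match polyamide (left panel) and the mismatch polyamide (right panel) against dexamethasone alone. The 34 ER genes reach 61.8% and 52.9% lower, all genes 17.4% and 11.8% lower, and the PERK and ATF4 branch 72.2% and 44.4% higher.

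Gene length moved with the polyamide changes over the whole array, and these values stand beside those of the ER genes. Under match 6.55% of genes spanning under 10 kb were lower, 8.66% of those of 10 to 30 kb, 18.8% of those of 30 to 100 kb and 44.9% of those over 100 kb. In the same classes 4 of 10, 8 of 12, 5 of 8 and 4 of 4 of the ER genes fell. Under mismatch the shares of all genes were 4.03%, 4.87%, 11.3% and 34.9%, and 4 of 10, 7 of 12, 4 of 8 and 3 of 4 of the ER genes fell. The 4 longest were ATF6 (198 kb), CREB3L2 (127 kb), DNAJC3 (118 kb) and SEC24D (113 kb). The part of span in these changes was not tested.

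**Figure D5:**
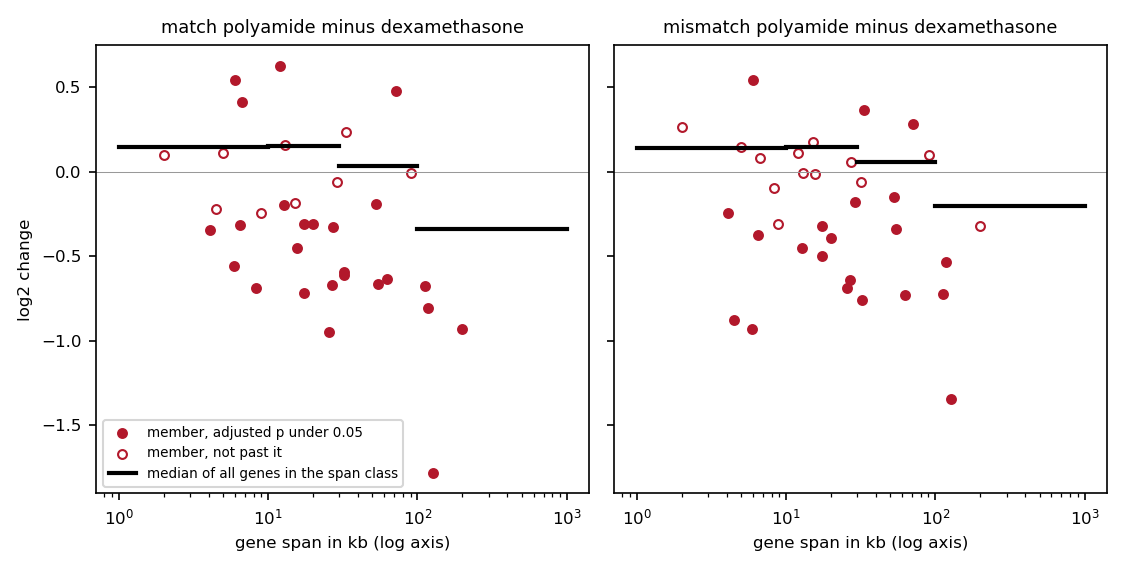
Log2 change under the match (left) and mismatch (right) polyamide against gene span in kb (log axis), for each ER gene (filled where adjusted p was under 0.05), with black bars at the median of all genes in each span class. Most ER genes lie below the bar of their class, and the bar of the class over 100 kb is itself at -0.34 and -0.20.

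Brightness of the probe set also moved with the calls, and its part in them was not tested. Under match 8.23% of genes with a mean signal under 100, 27.3% of those from 100 to 1000 and 30.9% of those over 1000 were lower, against 2 of 4, 12 of 22 and 7 of 8 of the ER genes. Under mismatch the shares of all genes were 4.8%, 19.5% and 21.1%, against 3 of 4, 9 of 22 and 6 of 8. The other 41 tested probe sets of these genes, in 23 of them, never gave a call opposite to the one used. Under match 21 of the 41 had the same call and 20 differed in that only 1 of the pair passed, and under mismatch 17 and 24. Among genes with several probe sets, all those of ATF6, DNAJC3, OS9, PDIA3, PDIA4 and PDIA6 fell under match.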

How the data were processed

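The authors deposited 1 MAS5 signal per probe set and array, a linear intensity, made with MAS5 per the submitters' processing notes. Neither the MAS5 version nor its target level is stated in the sources used here. There were 54675 probe sets on 15 arrays. The design called for no further scaling if the arrays shared a level, but they did not, with 2% trimmed means of 87.25 to 147.1 and medians of 14.78 to 24.55, so signals were quantile normalized, and the number of arrays limits the precision. After 62 control probe sets were left out, a probe set was kept if 3 or more arrays showed it above their 40th percentile (39744, 72.7%).

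Log2(signal + 16) was fitted with limma 3.58.1 in R 4.3.3, with 1 coefficient per group over all 15 arrays and variances that follow a trend (residual degrees of freedom 10, prior 9.36). The Benjamini-Hochberg adjustment ran over the tested probe sets of each comparison, with a threshold of 0.05. Alternatives covered the scaling, the added constant, the filter, the variance trend, a replicate block, the choice of probe set, the arrays fitted and leaving out each array. The fit was tested on simulated data.

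Probe sets were named from the platform's annotation (41097 with 1 symbol, 41043 of them matched to RefSeq by gene identifier, 1801 with several and 11777 with none). The genes and lists were chosen with earlier results of these data known. Every array is given for the 10 called genes of largest change without overlap in each polyamide comparison, every gene called in the others, and the sensors and XBP1, and up to 4 genes of each neighbouring list by adjusted p. Other genes and probe sets were named after their values were seen.

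Spans, promoter windows and their sequences are from RefSeq on GRCh38.p14.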

Additional observations from a re-analysis of the deposited data

How the results depend on the processing

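Counts are of the 34 ER genes called, and the cause of a change under another setting was not tested. They are not set against the shares of all genes called under the same setting. With signals as deposited, dexamethasone raised 1 gene, mifepristone gave 15 higher and 0 lower, match 12 lower, mismatch 1 higher and 7 lower, and match against mismatch 0 higher. With spike-in scaling the same counts were 1, then 21 and 0, then 6, then 1 and 7, then 2, with 0 lower between the polyamides. Median centring gave 3 higher and 1 lower for mifepristone and 2 higher between the polyamides. The stricter filter gave 1 lower for dexamethasone and 2 higher for mifepristone, and turned DERL3 under mismatch to 0.70, since it removed the dim probe set. Without the variance trend mifepristone had 0 higher and 1 lower, and mismatch 1 higher. With only the 6 arrays compared, 1 gene fell with dexamethasone. Reading the dimmest probe set of each gene gave 2 higher for dexamethasone, 0 higher for mifepristone, 1 higher and 10 lower for mismatch, and 4 lower between the polyamides. It also turned EIF2AK3 to 0.16 (mifepristone), -0.19 (match) and -0.079 (mismatch), XBP1 to -0.25 (mifepristone) and -0.23 (mismatch), HSP90B1 to 0.22 (match) and CREB3L2 to 0.20 (match against mismatch), none of them called. With mifepristone, SELENOS turned to 0.10 as deposited and 0.17 with spike-in scaling, and HERPUD1 to 0.19 and 0.26.

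Leaving out 1 array at a time gave 4 to 4 higher and 0 to 0 lower for dexamethasone, 0 to 1 and 2 to 3 for mifepristone, 4 to 4 and 18 to 22 for match, 1 to 3 and 16 to 17 for mismatch, and 3 to 4 and 6 to 8 between the polyamides. Mifepristone had 0 higher without mifepristone array 1 or dexamethasone array 2, and mismatch 1 higher without mismatch array 1 or 3 or dexamethasone array 2. Deviations of same-numbered arrays from their group means correlated at -0.084 to 0.116. With 3 arrays per group this cannot show whether arrays of the same number shared a culture or a batch. With the replicate number as a block the counts were 4 and 0, 1 and 3, 4 and 21, 2 and 17, and 4 and 8, in the same order.

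The scaling also moved the share of all called genes that were lower. It was 53.0% for dexamethasone, 37.8% as deposited. For mifepristone it was 52.2%, against 3.01% as deposited, 36.5% with median centring and 1.83% with spike-in scaling. For match it was 44.7%, 23.3% with spike-in scaling, and for mismatch 39.7%, 21.7% as deposited. Between the polyamides it was 58.8%, against 86.3%, 73.5% and 29.9% as deposited, with median centring and with spike-in scaling. The dim probe sets of CALR and DERL3 limit the precision of their values.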
